A study of Mus musculus with 6 samples.

Results

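Acute phase genes encode secreted proteins whose blood levels change in inflammation, injury and infection. A list of 10 genes grouped as acute phase proteins made in fat was followed here, called acute phase genes below. They are the pentraxin Ptx3, the serum amyloids Saa1 and Saa3, haptoglobin (Hp), lipocalin 2 (Lcn2), orosomucoid (Orm1), ceruloplasmin (Cp), the serine protease inhibitor Serpina3n, interleukin 1 beta (Il1b) and the regulatory subunit of carboxypeptidase N (Cpn2). Not all are acute phase proteins known to come from fat. Il1b is a cytokine upstream of the response, Saa1 is mainly a liver gene, and Cpn2 belongs to a plasma enzyme. The members were chosen as a list of gene symbols, each matched to its gene ID, and all 10 were found among 24415 gene IDs counted. Libraries came from inguinal white adipose tissue, a subcutaneous depot, of nonfasted mice 12 weeks old in a C57BL/6 background. There were 3 libraries labelled Hsp20 KO (knockout of the small heat shock protein Hsp20, gene Hspb6) and 3 WT libraries, 1 mouse each. The series asks how gene expression in this depot differs between the genotypes. The sources used here do not say which part of Hspb6 the knockout allele lacks or whether all cells lose it. Below, the libraries labelled Hsp20 KO are called KO 1, KO 2 and KO 3 after their labels, and the WT libraries WT 1, WT 2 and WT 3.

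Most acute phase proteins come from the liver, where interleukin 1 acts through the transcription factor NF-kB, and interleukin 6 acts through gp130, JAK kinases and STAT3, with C/EBP factors beside them. Fat tissue takes part as well: fat cells are known sources of haptoglobin, orosomucoid and Serpina3n, and mouse fat makes Saa3 when inflamed, whereas Saa1 and Saa2 are mainly liver genes. Ptx3 is made locally by stromal, endothelial and myeloid cells, and Il1b by myeloid cells.

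Library totals ran from 14078936 to 32648746 counts, the lowest in KO 3. Hspb6, the targeted gene, had 245, 33 and 53 counts in KO 1, KO 2 and KO 3, against 325, 289 and 296 in WT 1, WT 2 and WT 3. Its log2 change was -1.08 ± 0.51 (SE) and did not pass (edgeR quasi-likelihood test with Benjamini-Hochberg adjustment, adjusted p = 0.227). For this gene, the library labelled KO 1 goes against its label. Its Hspb6 level was 8.86 CPM (the count scaled to library size, with TMM factors), against 8.95 to 12.6 CPM in the WT libraries. Without KO 1 the log2 change was -1.99 (edgeR adjusted p = 0.0221). Exons of Gm38670 on the same strand, and of Lin37 and Proser3 on the opposite strand, overlap those of Hspb6. The sources used here state no strand setting, so reads of these genes may be among the Hspb6 counts. KO 1 stays in the comparisons under its label, and calls of named genes that change without it are given both ways. Of 15994 genes tested, 1223 (7.65%) passed at an adjusted p under 0.05, 4.23% higher and 3.42% lower in the libraries labelled KO, and the median log2 change was 0.001. At an unadjusted p under 0.05 in edgeR, 4152 of the 15994 were counted, in either direction. Unadjusted edgeR counts in the lists below are to be read beside that number. Totals over all genes with DESeq2, and their range without 1 library, are in the last section.

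Of the 10 acute phase genes, Ptx3 and Il1b fell and Cpn2 rose, 6 did not pass the test, and Saa1 was too low to test. Ptx3 was 15.8-fold and Il1b 3.90-fold lower, and Cpn2 16.8-fold higher, in the libraries labelled KO. The 3 calls are of 9 tested members, where 7.65% of all tested genes were called. The median log2 change of the 9 was -0.33, against 0.001 for all tested genes, and 7 of the 9 were negative, against 49.8% of all tested genes. The groups did not overlap for 4 of the 9, Ptx3, Il1b, Cpn2 and Hp, against 32.5% of all tested genes. In 3 of them, Ptx3, Il1b and Hp, the libraries labelled KO lay below all WT libraries, against 15.6% of all tested genes. Because the members were chosen with earlier results of these data known, these shares cannot test the list against all genes. In bulk tissue, fewer cells of a type and less RNA per cell cannot be told apart.

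The promoters of the 3 genes that passed are shown so that their sequence can be read beside the values. Each is the 250 bases before the RefSeq start on GRCm38.p6, read on the gene's strand, and 8 of the 10 members matched an entry of the RefSeq promoter table. Ptx3 is at chr3:66219637-66219886 on the plus strand, Il1b at chr2:129371140-129371389 on the minus strand and Cpn2 at chr16:30267533-30267782 on the minus strand. For Il1b the start in the promoter table lies inside the gene span given below. Bases 129371140 to 129371164 of its window therefore belong to that span, and its positions count from the promoter table's start. Capitals mark matches, on either strand, to 5 motifs. The NF-kB motif was a run of 3 G, any 5 bases and a run of 2 C. The C/EBP motif was TTGCNNAA and the STAT motif was TTCNNNGAA. The AP-1 motif was TGANTCA, and the TATA box was TATAAA.
Ptx3: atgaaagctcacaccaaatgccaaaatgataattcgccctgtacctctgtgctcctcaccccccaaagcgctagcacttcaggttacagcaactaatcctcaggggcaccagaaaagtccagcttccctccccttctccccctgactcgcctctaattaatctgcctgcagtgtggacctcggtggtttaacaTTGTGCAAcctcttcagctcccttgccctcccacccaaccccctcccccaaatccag
Il1b: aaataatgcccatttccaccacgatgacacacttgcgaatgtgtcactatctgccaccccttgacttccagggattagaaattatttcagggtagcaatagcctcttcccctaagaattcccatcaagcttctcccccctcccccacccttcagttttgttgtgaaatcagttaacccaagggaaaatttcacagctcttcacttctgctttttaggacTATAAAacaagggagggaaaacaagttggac
Cpn2: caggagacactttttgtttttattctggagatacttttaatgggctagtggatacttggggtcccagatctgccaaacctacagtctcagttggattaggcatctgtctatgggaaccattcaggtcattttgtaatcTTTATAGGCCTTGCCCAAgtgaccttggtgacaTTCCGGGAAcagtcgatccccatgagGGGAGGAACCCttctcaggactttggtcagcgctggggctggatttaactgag
The Ptx3 window held 1 match, the C/EBP letters TTGTGCAA at -57 to -50 from the start. The Il1b window held 1, TATAAA at -31 to -26. The Cpn2 window held the STAT letters TTCCGGGAA at -79 to -71, the C/EBP letters TTGCCCAA at -102 to -95, an NF-kB match at -106 to -97, and a TATA box match on the opposite strand at -112 to -107. It also held 2 overlapping NF-kB matches between -53 and -43. The first NF-kB match overlaps the C/EBP match. In all 32851 windows of the table, 45.8% held the NF-kB motif, 9.56% the C/EBP letters, 7.02% the STAT letters, 6.75% the AP-1 letters and 12.4% TATAAA. These are matches of letters in a short window, not measured binding.

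Levels per transcript length put the members in 3 tiers. As CPM per kilobase of the principal transcript (RPKM), Hp averaged 928 ± 31.5 in the libraries labelled KO and 1163 ± 102 in WT (SD, n = 3 each). Orm1 averaged 146 ± 24.2 RPKM in the libraries labelled KO and 137 ± 23.3 RPKM in WT. Serpina3n averaged 102 ± 29.2 RPKM in the libraries labelled KO and 144 ± 25.5 RPKM in WT, and Cp 44.8 ± 7.30 RPKM in the libraries labelled KO and 52.0 ± 3.36 RPKM in WT. Hp lay above the other 9 members in every library, and the libraries of Orm1 and Serpina3n overlapped within each group. Hp alone took between 67.9% and 76.3% of the members' summed counts in a library.

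The second tier lay at a few RPKM. In WT it ran from Ptx3 (8.57 ± 7.76 RPKM) through Il1b (5.41 ± 2.39) and Saa3 (1.82 ± 1.75) to Lcn2 (1.79 ± 0.352; SD, n = 3), and neighbours in that order overlapped between libraries. In the libraries labelled KO it ran from Saa3 (1.40 ± 0.526 RPKM), Lcn2 (1.38 ± 0.427) and Il1b (1.35 ± 0.388) to Cpn2 (0.903 ± 0.494) and Ptx3 (0.526 ± 0.124; SD, n = 3). Ptx3 thus stood first of this tier in WT and last in the libraries labelled KO. At the bottom were Saa1, with 0.0646 ± 0.0601 RPKM in the libraries labelled KO and 0.0688 ± 0.0597 in WT, and, in WT, Cpn2 with 0.0531 ± 0.0212.

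**Figure D1:**
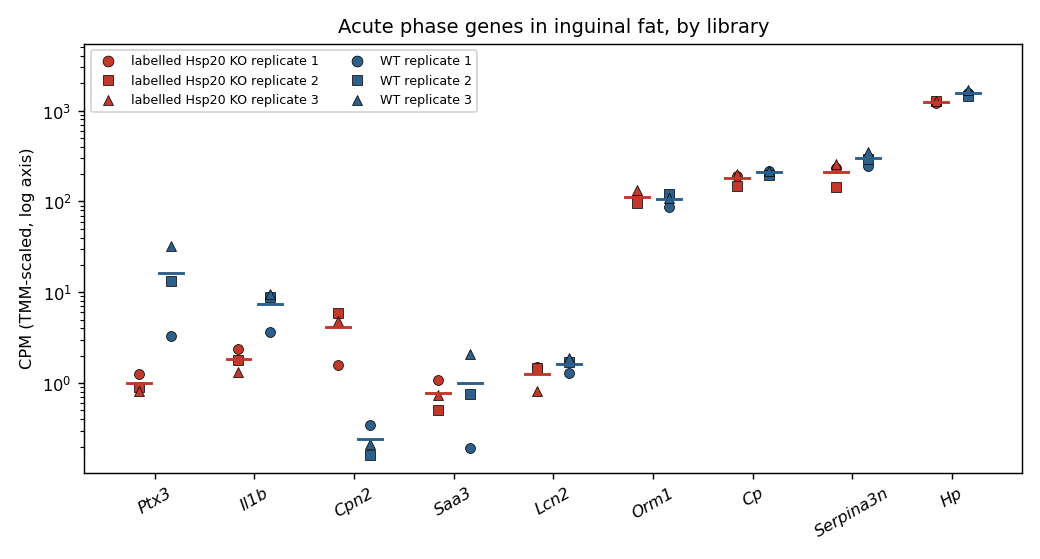
Level of the 9 tested acute phase genes in each library, in CPM scaled by TMM, on a log axis (points, libraries; bars, group means; n = 3 each). All 3 libraries labelled Hsp20 KO lie below the 3 WT libraries for Ptx3, Il1b and Hp and above them for Cpn2, and the groups overlap for the other 5.

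Ptx3, the long pentraxin that binds complement C1q and microbes and helps build the hyaluronan matrix, lies at chr3:66219887-66225806, plus strand (GRCm38 here and below). It had 1.27, 0.916 and 0.817 CPM in KO 1, KO 2 and KO 3. WT 1, WT 2 and WT 3 had 3.26, 13.3 and 32.3 CPM. The groups did not overlap, the libraries labelled KO lay close together, and WT 3 was 9.89-fold above WT 1. The log2 change was -3.98 ± 0.81 (SE; edgeR adjusted p = 0.0314). Of 4 tested genes of the pentraxin family, Ptx3 was the 1 that passed. The within-group SD of log2 CPM was 0.31 in the libraries labelled KO and 1.66 in WT. In WT only 0.188% of tested genes had a larger SD, where the median over tested genes was 0.12. The call held without WT 1 (edgeR adjusted p = 0.0112) and not without WT 2 (0.0892) or WT 3 (0.0794, log2 change -3.01) or KO 1 (0.0501), KO 2 (0.083) or KO 3 (0.0865). It also did not pass with limma-voom (adjusted p = 0.164) or robust dispersions (edgeR adjusted p = 0.0537).

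Il1b, the cytokine that sets off much of the acute phase response, lies at chr2:129364569-129371164, minus strand. It had 2.39, 1.79 and 1.34 CPM in KO 1, KO 2 and KO 3. WT 1, WT 2 and WT 3 had 3.61, 8.91 and 9.49 CPM. The groups did not overlap, though WT 1 lay nearer to the libraries labelled KO than to the other WT libraries. The log2 change was -1.96 ± 0.39 (SE; edgeR adjusted p = 0.0296). It passed without KO 1 (edgeR adjusted p = 0.0302) or WT 1 (0.012). It did not pass without KO 2 (0.0749) or KO 3 (0.077) or WT 2 (0.0997) or WT 3 (0.115), nor with limma-voom (adjusted p = 0.0655). An antisense gene, Il1bos, overlaps Il1b exons. The sources used here do not state how strand was treated in counting, and without strand reads of the pair cannot be told apart.

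Cpn2, the leucine-rich subunit that stabilises the plasma enzyme carboxypeptidase N, which trims kinins and complement anaphylatoxins, lies at chr16:30256378-30267532, minus strand. It had 1.59, 5.91 and 4.83 CPM in KO 1, KO 2 and KO 3. WT 1, WT 2 and WT 3 had 0.349, 0.163 and 0.212 CPM, from 9, 5 and 7 counts. KO 1 was the lowest of its group and still above every WT library. The log2 change was 4.07 ± 0.58 (SE; edgeR adjusted p = 0.0116). Without KO 1 it was 4.48 (adjusted p = 0.000711). The call was lost without WT 2 (edgeR adjusted p = 0.0646, log2 change 3.86) or WT 3 (0.0658, log2 change 3.99). Cpn1, which encodes the catalytic subunit of the same enzyme, had 3, 1 and 1 counts in the libraries labelled KO and 1, 0 and 2 in WT, too few to test.

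Of the serum amyloids, apolipoproteins carried on high density lipoprotein, Saa3 and Saa4 passed the filter on low counts. Saa3 (chr7:46711998-46719615, minus strand) had 1.08, 0.504 and 0.742 CPM in KO 1, KO 2 and KO 3, against 0.194, 0.751 and 2.09 CPM in WT 1, WT 2 and WT 3. The WT libraries spanned the whole range of the libraries labelled KO, from below to above. The log2 change of -0.39 ± 0.71 (SE) did not pass (edgeR adjusted p = 0.773), and leaving out 1 library moved it between -0.84 and 0.70. Saa1 had 2, 1 and 0 counts in the libraries labelled KO and 0, 2 and 2 in WT. Its near copy Saa2 had 2, 0 and 0 counts, against 0, 0 and 1 in WT. Saa4, of the same family and no member of the 10, had 15, 18 and 5 counts in the libraries labelled KO and 23, 23 and 15 in WT (edgeR adjusted p = 0.776). A count of 0 allows up to 0.223 CPM in KO 3 and 0.116 CPM in WT 1 (limit of 3 counts, counting error only). Saa1 (chr7:46740497-46743181, minus strand) and Saa3 lie 16.2 Mb from Hspb6.

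Haptoglobin, which binds free haemoglobin, is encoded at chr8:109575128-109579172, minus strand. It had 1199, 1273 and 1271 CPM in KO 1, KO 2 and KO 3. WT 1, WT 2 and WT 3 had 1559, 1430 and 1703 CPM. The groups did not overlap, and the spread was small in both (SD 42.4 CPM in the libraries labelled KO and 137 CPM in WT). The log2 change of -0.33 ± 0.12 (SE) did not pass with edgeR (adjusted p = 0.149) and passed with DESeq2's Wald test (adjusted p = 0.00838); without 1 library it ran from -0.39 to -0.26. Haemoglobin and other red cell genes were also lower in the libraries labelled KO: 5 of 6 blood markers fell (edgeR). Within the groups the order differed. Hba-a1 was highest of its group in KO 1 (1663 CPM) and in WT 2 (3589 CPM, with WT 3 at 3570 CPM), where Hp was lowest. Hba-a1 and Hba-a2, near-identical copies, differed by at most 2 counts in any library, so 1 measurement stands in that count under both names. With Hba-a2 left out, a choice made after seeing the data, the remaining 5 markers summed to 2618 to 3172 CPM in the libraries labelled KO and 5843 to 6729 CPM in WT. Without WT 2 or WT 3, edgeR called 3 of the 6, both copies counted. The part of blood in the Hp difference was not tested.

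Serpina3n, an inhibitor of granzyme B and cathepsin G, lies at chr12:104406646-104414334, plus strand. It had 234, 143 and 256 CPM in the libraries labelled KO and 245, 297 and 350 CPM in WT. The groups overlapped, and the log2 change of -0.50 ± 0.23 (SE) did not pass (edgeR adjusted p = 0.215). The gene sits in a cluster of near-identical copies that can share reads, so values within it are uncertain. Of 10 tested cluster members 0 rose and 1 fell with edgeR (at an unadjusted p under 0.05, 1 was higher and 3 lower), and 0 rose and 1 fell with DESeq2 and with limma-voom. The gene edgeR called was Serpina3b, named after its values were seen, at 0.147 ± 0.0374 CPM in the libraries labelled KO and 0.573 ± 0.132 CPM in WT (SD, n = 3 each; edgeR adjusted p = 0.0327, DESeq2 adjusted p = 0.0509). It was not called when any 1 of the 6 libraries was left out (edgeR adjusted p from 0.0607 to 0.136).

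Orosomucoid is a plasma carrier protein that also dampens immune cells. Orm1 (chr4:63344556-63348163, plus strand) had 111, 95.5 and 133 CPM in the libraries labelled KO and 86.7, 122 and 110 CPM in WT, and the groups overlapped throughout. Its log2 change was 0.09 ± 0.16 (SE; edgeR adjusted p = 0.772), and without 1 library it ran from -0.05 to 0.20. The neighbouring copies Orm2 and Orm3 had log2 changes of 0.06 ± 0.19 and 0.06 ± 0.13 (SE; edgeR adjusted p = 0.862 and 0.813). Orm1 took 72.7%, 73.2% and 72.8% of the counts of the 3 copies in the libraries labelled KO and 71.9%, 73.0% and 72.8% in WT. Because the copies can share reads, this split is uncertain.

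Ceruloplasmin, the copper ferroxidase that lets iron leave cells, is encoded at chr3:19956933-20009750, plus strand. Cp had 192, 147 and 202 CPM in the libraries labelled KO and 217, 194 and 218 CPM in WT. The log2 change was -0.21 ± 0.13 (SE; edgeR adjusted p = 0.335), and the groups overlapped. Hps3 overlaps Cp exons on the opposite strand. Lcn2, which sequesters bacterial iron carriers (chr2:32384637-32387739, minus strand), had 1.52, 1.47 and 0.817 CPM in the libraries labelled KO and 1.28, 1.73 and 1.90 CPM in WT, from 11 to 63 counts. Its log2 change of -0.33 ± 0.28 (SE) did not pass (edgeR adjusted p = 0.50). A p that misses the threshold does not show that these levels are equal.

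**Figure D2:**
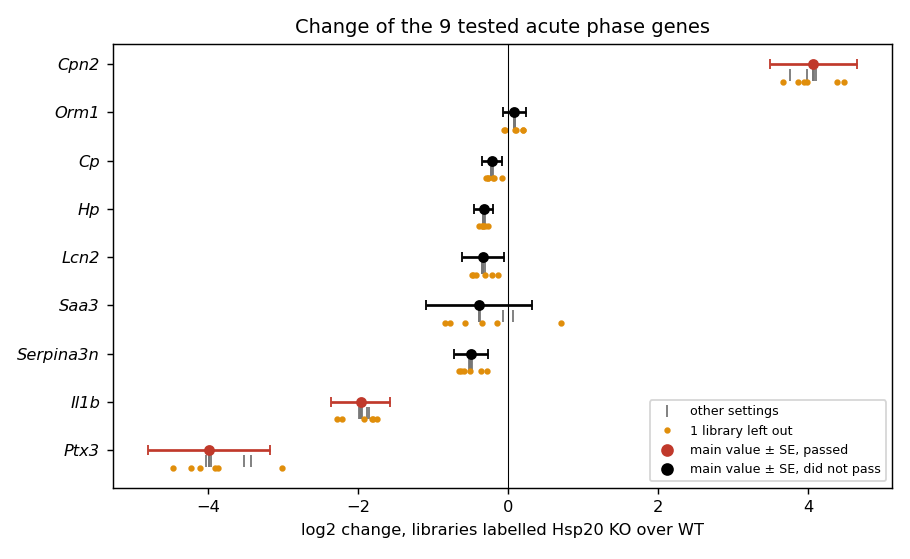
Log2 change of the 9 tested acute phase genes, libraries labelled Hsp20 KO over WT, with the SE implied by edgeR's F statistic (red, passed at an adjusted p under 0.05; black, did not pass). Grey bars are the other processing settings and orange dots the fits without 1 library. Ptx3, Il1b and Cpn2 keep their direction throughout, as do Hp, Lcn2, Cp and Serpina3n, which did not pass in the main fit. Orm1 changes sign in some fits, and Saa3 runs from -0.84 to 0.70 when 1 library is left out.

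The members also differed in how they varied among the WT mice. WT 1 was the lowest WT library for 6 of the 9 tested members, and WT 3 the highest for 7. Over all tested genes the same held for 38.5% and 32.8%. The highest WT library exceeded the lowest 9.89-fold for Ptx3, 10.7-fold for Saa3 and 2.63-fold for Il1b. For Hp, Cp, Orm1, Serpina3n and Lcn2 it was between 1.12-fold and 1.49-fold. In the libraries labelled KO the widest range was that of Cpn2, 3.71-fold, with 1.73% of tested genes showing a larger SD. Cpn2 lay between them in WT, at 2.14-fold. The SD of log2 CPM in WT was 0.26 for Serpina3n, 0.25 for Orm1, 0.13 for Hp and 0.10 for Cp, against the median of 0.12 over tested genes.

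Genes with the pattern most like 3 of the members were picked by the smallest root mean square difference of centred log2 CPM over the 6 libraries, among genes averaging at least 1 CPM. For Ptx3 these were Clec4d, a myeloid C-type lectin (0.572), the chemokine Ccl7 (0.639) and the metallothionein Mt2 (0.818). The distances are on the log2 scale. For Il1b they were Socs3 (0.134), Tnfaip6 (0.313) and Clec4e, a receptor for fungal and mycobacterial lipids (0.338). For Cpn2 they were the mitochondrial carrier Slc25a48 (0.273), the fructose transporter Slc2a5 (0.300) and Cpt1b, which admits fatty acids to mitochondria (0.320). Ccl7 had 5.46, 3.89 and 2.30 CPM in the libraries labelled KO and 13.3, 22.3 and 44.2 CPM in WT. Slc2a5 had 20.5, 55.9 and 60.2 CPM in the libraries labelled KO and 5.78, 2.12 and 4.72 CPM in WT. For both, KO 1 was the library of its group nearest to WT.

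Upstream of the acute phase, 1 of 24 tested cytokines and receptors fell and 0 rose with edgeR (unadjusted p under 0.05 in 7 lower, 0 higher), 5 fell and 0 rose with DESeq2, and 1 fell and 0 rose with limma-voom. Without KO 1 or WT 1, 3 fell. The median log2 change was -0.24. The gene called with all libraries was Il11, a cytokine that signals through gp130, at 12.4 ± 1.54 CPM in the libraries labelled KO and 19.3 ± 0.507 CPM in WT (SD, n = 3 each; edgeR adjusted p = 0.0218). It was not called without WT 1 (edgeR adjusted p = 0.0513), WT 2 (0.0922) or WT 3 (0.0901). Il1r1, the signalling receptor for interleukin 1, had 64.3, 40.4 and 37.3 CPM in the libraries labelled KO and 71.5, 90.3 and 116 CPM in WT. Its groups did not overlap and its log2 change was -0.96 ± 0.24 (SE; edgeR adjusted p = 0.0531). It passed without KO 1 (adjusted p = 0.0117).

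Il1rn, the natural antagonist at that receptor, had 1.81, 2.15 and 1.26 CPM in the libraries labelled KO and 2.72, 4.60 and 10.1 CPM in WT (log2 change -1.72 ± 0.48 SE; edgeR adjusted p = 0.0703). Without WT 1 it passed (edgeR adjusted p = 0.041). Il6 had 9, 4 and 3 counts in the libraries labelled KO and 6, 28 and 21 in WT, too few to test. Tnf averaged 4.31 ± 1.48 CPM in the libraries labelled KO and 4.26 ± 0.415 CPM in WT (SD, n = 3 each; edgeR adjusted p = 0.965). The Tnf values of the groups overlapped.

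Among signal transducers and transcription factors, 1 of 28 fell and 0 rose with edgeR (unadjusted p under 0.05 in 10 lower, 2 higher), 5 fell and 1 rose with DESeq2, and 0 changed with limma-voom (9 lower and 2 higher unadjusted). Without KO 1 edgeR called 2 lower, and without WT 1 it called 5. The median log2 change was -0.17. The gene called with all libraries was Socs3, which STAT3 induces and which shuts off gp130 signalling. It had 22.1, 17.4 and 12.6 CPM in the libraries labelled KO and 26.7, 80.3 and 92.9 CPM in WT. As for Il1b, for which Socs3 was the likest gene above, WT 1 lay close to the libraries labelled KO. The log2 change was -1.93 ± 0.44 (SE; edgeR adjusted p = 0.0409). It passed without WT 1 (adjusted p = 0.0112) or KO 1 (0.0444), and not without WT 2 (0.123) or WT 3 (0.142) or KO 2 (0.0951) or KO 3 (0.106).

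Cebpd, a C/EBP factor induced by cytokines, had 27.6, 20.5 and 19.5 CPM in the libraries labelled KO and 29.1, 45.6 and 56.9 CPM in WT (log2 change -0.96 ± 0.24 SE; edgeR adjusted p = 0.0561). It passed without WT 1 (0.0299) or KO 1 (0.0402; edgeR adjusted p). Its relative Cebpb averaged 17.1 ± 2.42 CPM in the libraries labelled KO and 20.3 ± 1.53 CPM in WT (SD, n = 3 each; edgeR adjusted p = 0.257). Stat3 itself averaged 179 ± 6.04 CPM in the libraries labelled KO and 227 ± 32.9 CPM in WT (SD, n = 3 each; edgeR adjusted p = 0.111). In the list of genes that process interleukin 1, 1 of 10 fell and 0 rose with edgeR (5 lower and 0 higher unadjusted), 5 fell with DESeq2 and 1 with limma-voom. Without KO 1 edgeR called 2 lower, and without WT 1 it called 3. The gene called with all libraries was Casp4, the caspase that senses bacterial lipopolysaccharide in the cytosol, at 9.45 ± 0.525 CPM in the libraries labelled KO and 16.3 ± 2.43 CPM in WT (SD, n = 3 each; edgeR adjusted p = 0.02). That call ended without WT 2 (0.0898) or WT 3 (0.0958) or KO 2 (0.0534) or KO 3 (0.0539; all edgeR adjusted p).

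**Figure D3:**
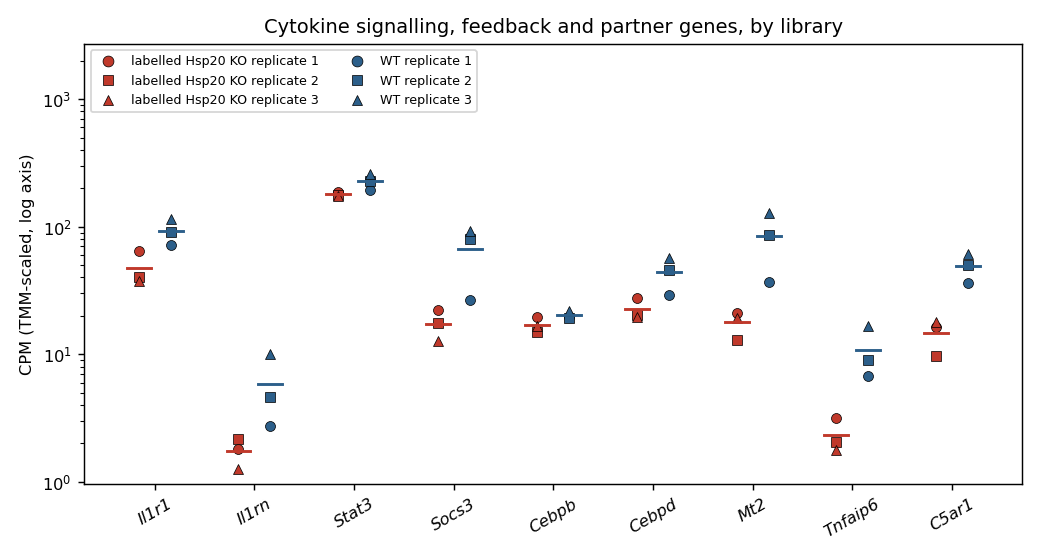
Level of cytokine signalling, feedback and partner genes in each library, in CPM scaled by TMM, on a log axis (points, libraries; bars, group means; n = 3 each). WT 1 is the lowest WT library for Socs3, Cebpd, Mt2 and Il1rn, and Cebpb overlaps between groups.

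Of 20 tested acute phase proteins known mainly from liver, 2 fell and 0 rose with edgeR (unadjusted p under 0.05 in 4 lower, 0 higher), 4 fell and 0 rose with DESeq2, and 2 fell and 0 rose with limma-voom. Without KO 1 edgeR called 4 lower and 1 higher. The median log2 change was -0.18. Mt2, a metal-binding protein induced by cytokines and glucocorticoids, had 21.1, 13.0 and 19.4 CPM in the libraries labelled KO and 37.0, 86.8 and 128 CPM in WT (log2 change -2.24 ± 0.42 SE; edgeR adjusted p = 0.0257). Steap4, a metalloreductase of fat cells that cytokines induce, had 473, 329 and 349 CPM in the libraries labelled KO and 623, 641 and 706 CPM in WT (log2 change -0.77 ± 0.16 SE; edgeR adjusted p = 0.0301). Mt2 was not called without WT 2 (0.0893) or WT 3 (0.0832) or KO 2 (0.0663) or KO 3 (0.0659; all edgeR adjusted p). Steap4 was called without KO 1 (0.00343) and not without any other (edgeR adjusted p from 0.0659 to 0.127). Of the 32 genes listed, 12 were too low to test, and Apcs, Fga, Fgb and Mbl2 had 0 counts in all 6 libraries.

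Of 20 tested partners, receptors and substrates of the members, 5 fell and 1 rose with edgeR, with a median log2 change of -0.36 (unadjusted p under 0.05 in 9 lower, 3 higher), and DESeq2 called 8 lower and 2 higher and limma-voom 4 lower and 1 higher. C5ar1, the receptor for the anaphylatoxin C5a that carboxypeptidase N inactivates, had 16.2, 9.66 and 18.0 CPM in the libraries labelled KO and 36.5, 50.1 and 61.1 CPM in WT (log2 change -1.76 ± 0.26 SE; edgeR adjusted p = 0.0125). Tnfaip6, the hyaluronan-binding partner of Ptx3, had 3.18, 2.06 and 1.78 CPM in the libraries labelled KO and 6.72, 8.94 and 16.8 CPM in WT (log2 change -2.17 ± 0.38 SE; edgeR adjusted p = 0.0213). The groups did not overlap for either gene. C5ar1 was not called without WT 2 (0.0602) or WT 3 (0.0554), and Tnfaip6 without those (0.0651 and 0.0541) or KO 2 (0.0589) or KO 3 (0.0608; all edgeR adjusted p).

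Fcna, a ficolin, and Gzmb, the granzyme that Serpina3n inhibits, fell too (edgeR adjusted p = 0.0303 and 0.0414), and are named after their values were seen. Fcna was called without KO 1 (0.0338) or WT 1 (0.035) and not without KO 2 (0.0707), KO 3 (0.0625), WT 2 (0.0934) or WT 3 (0.105; all edgeR adjusted p). Gzmb was called without WT 1 (0.0174) and not without KO 1 (0.0753), KO 2 (0.075), KO 3 (0.10), WT 2 (0.128) or WT 3 (0.148; all edgeR adjusted p), nor with limma-voom (adjusted p = 0.073). Leaving out KO 1 gave 8 lower and 2 higher partners, KO 2 gave 3 and 1, and KO 3 gave 2 and 0, while edgeR called 0 without WT 2 or WT 3 (unadjusted, 8 and 7 lower and 3 higher). The other two calls were iron handling genes. Heph, a ferroxidase related to ceruloplasmin, fell to 56.2 ± 5.12 CPM in the libraries labelled KO, against 87.1 ± 9.72 CPM in WT (SD, n = 3 each; log2 change -0.63 ± 0.11 SE, edgeR adjusted p = 0.018). Tfrc, the transferrin receptor, rose to 40.4 ± 1.37 CPM in the libraries labelled KO, against 27.2 ± 3.32 CPM in WT (SD, n = 3 each; log2 change 0.57 ± 0.10 SE, edgeR adjusted p = 0.0221). The Heph call ended without WT 2 (0.0766) or WT 3 (0.0544), and the Tfrc call without those (0.0824 and 0.06) or KO 3 (0.0536; all edgeR adjusted p).

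Markers of cell types that make these proteins were counted in the same libraries. Of 8 tested neutrophil markers 2, the receptors Csf3r and Cxcr2, fell and 0 rose with edgeR (unadjusted p under 0.05 in 5 lower, 0 higher), 4 fell with DESeq2 and 2 with limma-voom. With edgeR, Cxcr2 was lost without WT 3 (adjusted p = 0.0548), and Csf3r without KO 2 (0.0582), KO 3 (0.0601), WT 2 (0.0766) or WT 3 (0.0944). The summed level of the list was 48.5 to 59.5 CPM in the libraries labelled KO and 84.6 to 91.9 CPM in WT, without overlap, and Csf3r and Cxcr2 made up 79.9% to 91.3% of it. Without them, a choice made after seeing the data, the sum was 4.23 to 9.47 CPM in the libraries labelled KO and 11.9 to 17.2 CPM in WT. The granule genes Mpo, Elane, Ngp, Camp and Ltf were each at or below 1.94 CPM in every library. Ngp and Ltf had log2 changes of 0.36 and 0.23 (edgeR adjusted p = 0.777 and 0.826), and Mpo, too low to test, had 16, 5 and 5 counts in the libraries labelled KO and 4, 7 and 2 in WT. Of 10 macrophage markers 0 changed with edgeR (unadjusted 7 lower, 0 higher) or limma-voom (7 and 0) and 5 fell with DESeq2, and their sums overlapped, at 1128 to 1458 CPM in the libraries labelled KO and 1385 to 1581 CPM in WT. Without KO 1, edgeR called 7 of the 10 lower. The number of all genes called also differs between such fits (last section). Of 8 adipose progenitor and fibroblast markers and 6 endothelial markers, 0 were called with edgeR (unadjusted 1 lower and 0 higher in each list). The progenitor and fibroblast sums overlapped, at 3064 to 5627 CPM in the libraries labelled KO and 3744 to 4419 CPM in WT. Endothelial sums overlapped too, at 704 to 826 CPM and 796 to 850 CPM. Without KO 1, edgeR called 2 of the 8 lower and 0 of the 6. The part of neutrophils, macrophages, stromal or endothelial cells in the Il1b and Ptx3 differences was not tested.

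Of 10 hepatocyte markers, 8 were too low to test, Fgb and Cyp3a11 had 0 counts in all libraries, and the sum, mostly Alb, was 20.2 to 27.8 CPM in the libraries labelled KO and 25.5 to 27.6 CPM in WT. The 8 adipocyte markers, which define the labelled tissue, summed to 12409 to 17364 CPM in the libraries labelled KO and 11880 to 14598 CPM in WT, and 0 of the 8 passed with edgeR or limma-voom (2 higher and 0 lower unadjusted with edgeR, 3 higher with limma-voom) and 1 rose with DESeq2. All 7 thermogenic markers rose with edgeR and DESeq2 and 5 with limma-voom. Among the 7 was Cpt1b, which was picked above for a pattern like that of Cpn2. Without WT 2 or WT 3, edgeR called 2 of the 7. Their sum was 227, 677 and 789 CPM in KO 1, KO 2 and KO 3 and 92.1, 68.1 and 68.9 CPM in WT 1, WT 2 and WT 3. Cpn2 was also lowest of its group in KO 1, but KO 2 lay above KO 3 for Cpn2 (5.91 and 4.83 CPM) and below it for the sum. The part of thermogenic fat cells in the Cpn2 difference was not tested.

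**Figure D4:**
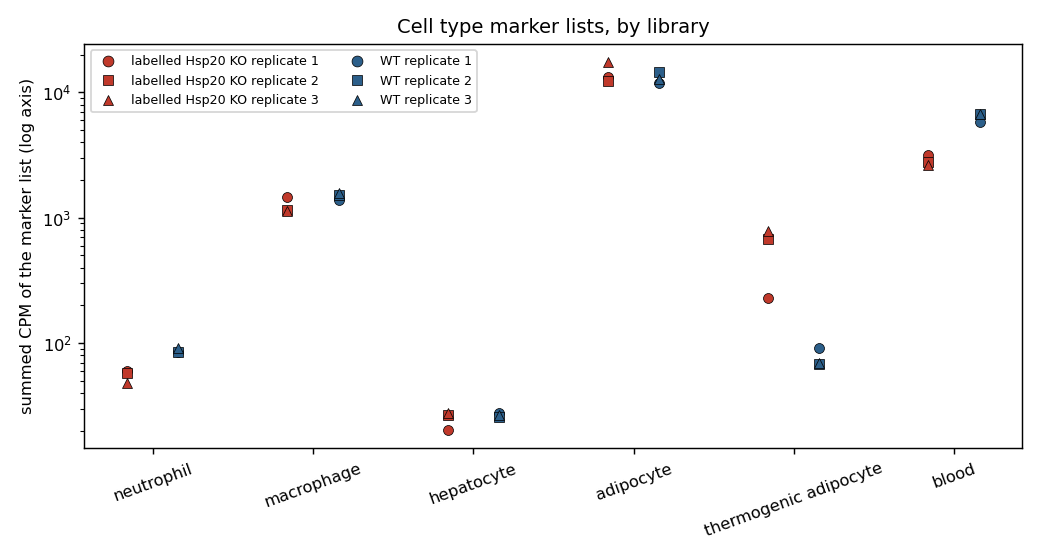
Summed level of marker genes of 6 cell types in each library, in CPM scaled by TMM, on a log axis (points, libraries; n = 3 each), with Hba-a2 left out of the blood sum. Neutrophil and blood sums are lower, and thermogenic sums higher, in all 3 libraries labelled Hsp20 KO than in WT, while macrophage, hepatocyte and adipocyte sums overlap.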

How the data were processed

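The values are raw counts of reads for each Entrez gene ID in a table that the authors deposited, 1 column per mouse. Per the submitters' processing notes, the builds were mm10 and GRCm38 and the tools included TopHat, DESeq, bcl2fastq and CASAVA 1.8. The sources used here name no read counter, annotation or strand setting.

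Of 24415 IDs, 24334 matched a symbol in a RefSeq table of GRCm38.p6. Genes were tested in R 4.3.3 with edgeR 4.0.16, after filterByExpr (minimum count 10, minimum total 15) and TMM scaling, by the quasi-likelihood F test on genotype, with Benjamini-Hochberg adjustment over all tested genes and a threshold of 0.05. The SE is the one implied by F. RPKM uses the length of the APPRIS principal transcript of GENCODE M21 on GRCm38. On counts simulated from this comparison (15817 genes tested), the test recovered 76% of 2-fold and 92.9% of 4-fold changes, and 9.19% of 185 calls were of unchanged genes.

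Members and lists were chosen with earlier results of these data known. Named genes are all members, Hspb6, up to 4 called genes per list by adjusted p with at least 1 CPM in a group, 12 genes named whatever their call, and the 3 likest genes of Ptx3, Il1b and Cpn2. Others are given as marker or list values. Alternatives were DESeq2 1.42.0 and its size factors, upper quartile scaling, other filters, limma-voom (limma 3.58.1), robust dispersions, blocking on the replicate number, leaving out single libraries or unmatched IDs and, added after seeing the data, the Orm copies summed and marker sums with genes left out.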

Additional observations from a re-analysis of the deposited data

How the results depend on the processing

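Of 587 values of 37 named genes under the alternatives, 477 kept their side of the threshold, 94 lost the call, 16 gained it and 0 of the called ones changed sign. DESeq2's Wald test called 1136 genes higher and 1017 lower of 16643, against 676 and 547 of 15994 with edgeR. List counts under DESeq2 are to be read beside these totals. The 2 lower members became 0 with limma-voom (3 lower at an unadjusted p under 0.05) and 1 with robust dispersions. Leaving out 1 library gave 75 to 941 genes higher and 53 to 730 lower, of 16159 to 16285 tested, so list counts in those fits have differing backgrounds. It gave 0 to 1 members higher, 0 to 2 members lower, and a log2 change of Hspb6 from -1.99 to -0.64. With WT 2 or WT 3 left out, 0 members passed in edgeR (unadjusted p under 0.05 in 1 higher, and in 3 lower without WT 2 and 2 lower without WT 3). The cause was not tested. The labels link same-numbered libraries by the number alone. Their deviations from the group means correlated at -0.038, 0.092 and -0.096 across genes, which cannot show whether they share anything else. KO 1 and WT 1 each had the largest share of counts in unmatched IDs of their group (3.278% and 5.74%). The replicate block gave 226 genes higher, 169 lower, and 1 member higher and 0 lower. Members under about 3 CPM rest on few counts, 5 to 69 for Saa3, which limits what could be detected.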
